A study of Mactra quadrangularis with 6 samples.

Results

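Lectins are proteins that bind sugars on cells, microbes and food particles, and this account covers the C-type lectins, mannose receptors, galectins, fucolectins and collectins of the surf clam Mactra quadrangularis (also named Mactra veneriformis). Genes were taken by the wording of their best-match description: C-type lectin, mannose receptor, galectin, fucolectin, tachylectin, rhamnose-binding, CD209, lectin BRA or collectin, with sialic acid-binding lectins and perlucins left out. This gave 100 of the 25145 genes in the deposited table. None was described as a tachylectin, a rhamnose-binding lectin or a lectin BRA. A name here is the closest described relative in another species and not a tested function.

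The data are poly(A) RNA-seq of mantle, the tissue that secretes the shell, from 3 libraries labelled as acidification stress and 3 labelled as normal seawater control. The series text ties the acidified groups to high pH, which is at odds with the name, so acidified and control are used below only as the names on the labels. The pH, its duration, the age of the clams and whether each library came from its own animal are not stated in the labels or the series text. The p-values therefore measure the spread between these libraries, which may be technical.

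C-type lectins share a fold that in many members binds sugar with the help of calcium. Mannose receptors of vertebrates are membrane proteins that carry a row of such domains and take up particles bearing mannose, CD209 is a C-type lectin of human dendritic cells, and collectins join a C-type lectin domain to a collagen stalk. Galectins are a separate family, made without a secretion signal, that bind galactose-containing sugars, and fucolectins bind fucose. In bivalves, lectins in haemocytes and in the mucus of pallial organs are known for recognising microbes and sorting food particles.

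The libraries held 28482358 to 37066703 counts. Control replicate 2 stood apart in rare transcripts: 2.59% of the genes with a count in it had none in any other library, against 1.33% to 1.57% in the other 5. In edgeR's quasi-likelihood test over the 17790 genes that passed a filter on low counts, 9.29% of genes were higher in the acidified group and 8.13% lower at an unadjusted p under 0.05, against which the marker counts that follow are to be read. Of 55 genes on a mantle and shell list, 51 had a count, with summed levels of 944 to 1196 FPKM (fragments per kilobase of transcript, scaled to library size) in the acidified group and 920 to 1169 in the control group. Of its 26 tested genes, 4 were higher and 0 lower. A list of 27 haemocyte genes, of which 0 were without a count, summed to 449 to 590 FPKM in the acidified group and 422 to 504 in the control group, with 5 of 22 tested genes (22.7%) higher and 1 (4.55%) lower. A list of 34 muscle genes, of which 1 was without a count, summed to 2351 to 3873 FPKM in the acidified group and 3311 to 5061 in the control group, with 5 of 29 tested genes (17.2%) lower and 0 higher. Lists for digestive gland, cilia and germ line had 5 of 20, 2 of 43 and 1 of 6 tested genes higher and 1, 7 and 0 lower, with summed levels of 503 to 626, 334 to 371 and 15.1 to 22.9 FPKM in the acidified group and 447 to 567, 334 to 432 and 18.0 to 23.0 in the control group. At an adjusted p under 0.05, DESeq2 called 6 of 27 mantle genes higher, 2 of 22 haemocyte and 3 of 21 digestive gland genes. It called 1 of 43 cilia, 2 of 7 germ line and 0 of 29 muscle genes higher, against 3.68% of all genes. Lower were 2 muscle genes, 2 cilia genes and 0 on the other lists, against 2.58% of all genes. The part of these cell types in the results below was not tested. In pieces of tissue, fewer cells of a type and less RNA per cell cannot be told apart.

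In the whole set, galectins gave most of the lectin RNA, and the 5 genes with the smallest p were mannose receptor-like, CD209-like and C-type lectin genes with short transcripts, 0.427 to 0.566 times the median length, all higher in the acidified libraries. Of the 100 genes, 11 had no count in any library (against 1093 of all 25145 genes), 31 had counts in 1 library and 29 in all 6. Only 36 passed the filter on low counts and were tested, against 17790 of all 25145 genes. The other 64 lectin genes held at most 124 counts each over all libraries. Mean levels were at least 100 FPKM for 4 lectin genes, 10 to 100 for 8, 1 to 10 for 15 and under 1 for 62.

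No lectin gene passed edgeR's quasi-likelihood test, fitted on all 17790 genes that passed the filter and adjusted over them with the Benjamini-Hochberg method (0 of 36 at an adjusted p under 0.05, and 0% of all genes). At an unadjusted p under 0.05, 7 of the 36 were higher (19.4%, against 9.29% of all genes tested) and 0 were lower (against 8.13%). The 3 acidified libraries lay above all 3 controls for 6 of the 36 (16.7%, against 12.2% of all genes), and below them for 0 (against 13.4%). With library size as the only scaling, 5 lay above and 1 below, where 4.81% of all genes lay above and 25% below. DESeq2, on the same counts, called 5 of 37 lectin genes higher and 0 lower at an adjusted p under 0.05, where 3.68% of all genes were called higher and 2.58% lower. Those 5 are among the 7. The lectin genes were chosen with earlier results of these data known, so these shares describe them and test nothing.

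The median log2 fold change, acidified over control, was 0.42 over the 36 tested genes and 0.00 over all genes, with 26 lectin genes above 0 and 10 below. It is relative to the bulk of genes, as TMM scaling between libraries sets it. With library size as the only scaling, the median was 0.08 for the lectin genes and -0.33 for all genes. Without acidified replicate 3 the lectin median was 0.12 over 40 genes. Recovered transcript lengths of the tested lectin genes had a median of 0.493 times that of all genes, and with all genes cut by length into 10 equal bins, 14 and 9 of the 36 fell in the 2 shortest, whose own medians over all genes were 0.29 and 0.26. With the trend over length removed the lectin median was 0.31. Within groups the lectin genes varied more than most: the median SD of log2 CPM (counts scaled to library size) between libraries of a group was 0.91 for them and 0.44 for all genes, and 20 of the 36 lay above the upper quartile of all genes, 0.76.

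**Figure D1:**
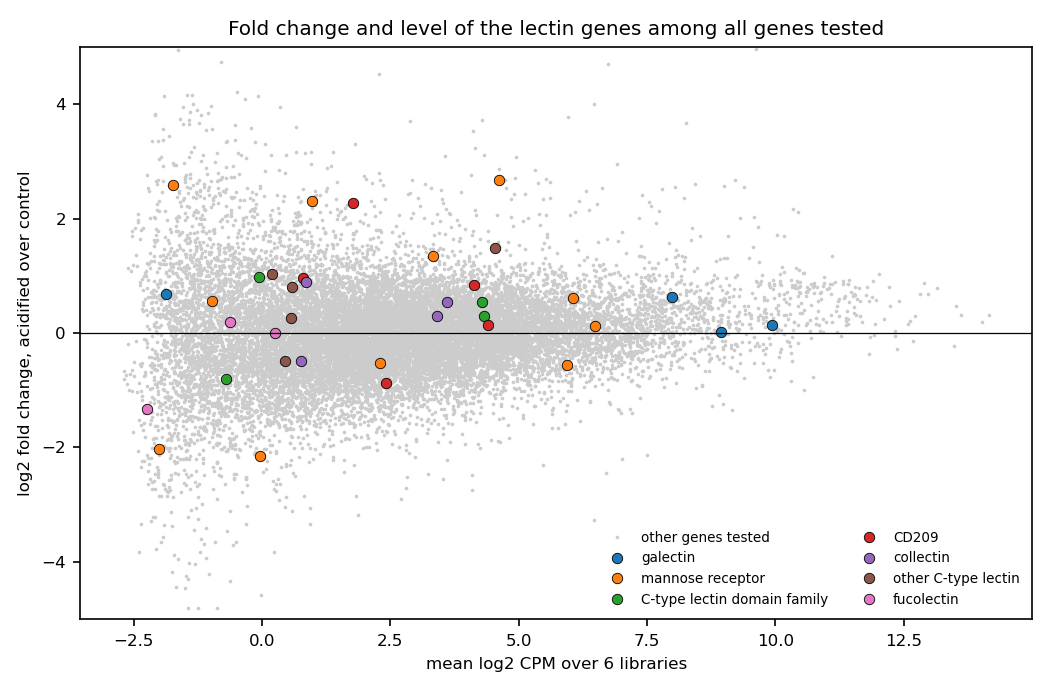
Log2 fold change (acidified over control) against mean log2 CPM over 6 libraries for the genes tested, with lectin genes coloured by name and other genes in grey. The axis stops at 5 either way and leaves out 36 genes, none of them a lectin. The lectin genes run from -2.15 to 2.68, and the 3 with the highest CPM are galectins, at 0.14, 0.02 and 0.63.

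Galectins held 74.0% to 92.6% of the summed lectin FPKM in each library. There were 5 galectin genes, all on chromosome 2, and 4 of them, described as tandem repeat galectins (galectins with 2 sugar-binding domains in a row), lay between positions 56477046 and 57309353. The most abundant lectin gene, Mve02G017790 (chromosome 2, 56477046 to 56501242), stood at 930, 1437 and 2703 FPKM in acidified replicates 1 to 3 and at 1790, 1311 and 2946 in control replicates 1 to 3. Mve02G017890 (56792407 to 56797793) stood at 342, 438 and 1164 FPKM in the acidified libraries and at 492, 537 and 1522 in the controls. Both genes were highest in the library numbered 3 of each group, and the groups overlapped.

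The ratio of Mve02G017790 to Mve02G017890 stayed between 1.94 and 3.64 over the 6 libraries. The labels name no batch. Over all genes, the deviations of same-numbered libraries had correlations of -0.044 to 0.009, which do not speak to single genes. Why both galectins were highest in the libraries numbered 3 was not tested. The log2 fold changes were 0.14 ± 0.45 (SE; adjusted p = 0.898 in edgeR) and 0.02 ± 0.59 (adjusted p = 0.987 in edgeR). Both estimates are smaller than their errors, so no direction is given for either gene. With library size as the only scaling, which lowers the median of all genes to -0.33, they were -0.23 and -0.37.

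The third abundant galectin, Mve02G018090 (57238157 to 57271398, minus strand), was steadier. It stood at 139, 143 and 180 FPKM in the acidified libraries and at 123, 104 and 157 in the controls. The groups overlap on this scale and do not overlap on TMM-scaled CPM. Its log2 fold change was 0.63 ± 0.22 (unadjusted p = 0.0224, adjusted p = 0.216 in edgeR), and 0.29 with library size as the only scaling (unadjusted p = 0.225, adjusted p = 0.492 in edgeR). The fourth, Mve02G018110, stayed at or under 1.33 FPKM, and the fifth, Mve02G012030, had counts in control replicate 2 alone.

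**Figure D2:**
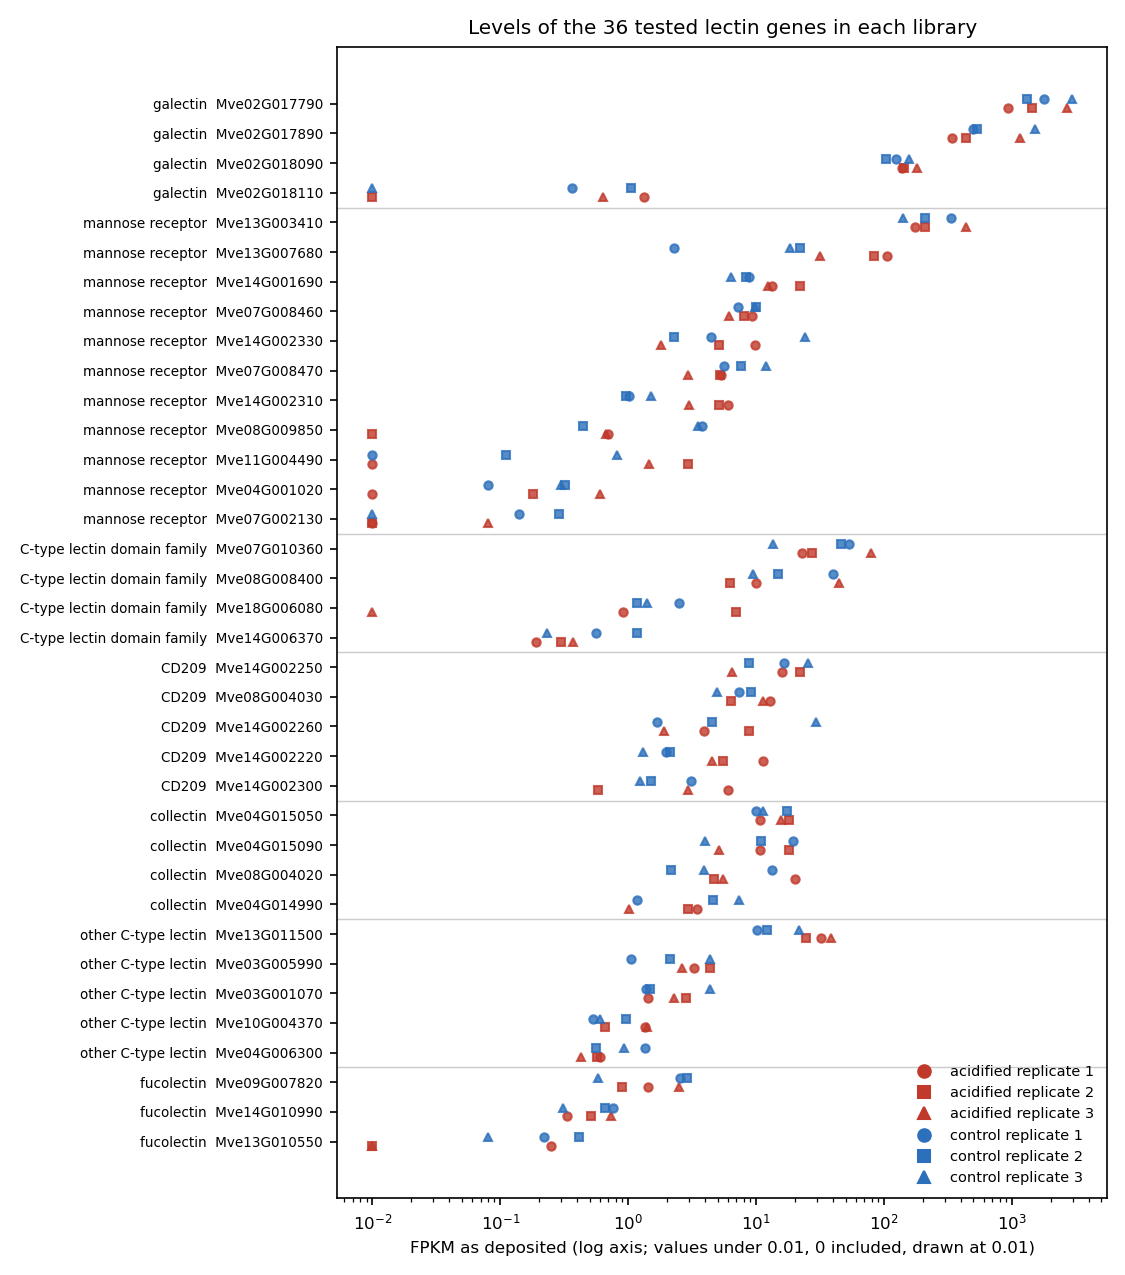
FPKM as deposited, on a log axis, of the 36 tested lectin genes in each library (red acidified, blue control, and the marker gives the replicate). The galectins Mve02G017790 and Mve02G017890 lie at 342 to 2946, and both replicates 3 (triangles) are their highest libraries.

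Genes described as mannose receptors numbered 29, of which 11 were tested, with a median log2 fold change of 0.56. At an unadjusted p under 0.05, 3 of the 11 were higher (27.3%, against 9.29% of all genes) and 0 were lower (against 8.13%). The smallest p of all lectin genes belonged to the macrophage mannose receptor 1-like gene Mve14G002310 (chromosome 14, 7887917 to 7888627, minus strand). It stood at 6.03, 5.09 and 2.98 FPKM in the acidified libraries and at 1.02, 0.96 and 1.51 in the controls. All acidified libraries lay above all controls, and the log2 fold change was 2.31 ± 0.40 (unadjusted p = 0.000552, adjusted p = 0.118 in edgeR).

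A second gene of that description, Mve14G001690 (chromosome 14, 5909696 to 5910487, minus strand), stood at 13.2, 22.1 and 12.3 FPKM in the acidified libraries and at 8.71, 8.37 and 6.36 in the controls. Again the groups did not overlap, with acidified replicate 2 the highest library, and the log2 fold change was 1.35 ± 0.32 (unadjusted p = 0.0031, adjusted p = 0.13 in edgeR). The largest fold change among the tested lectin genes belonged to the C-type mannose receptor 2-like gene Mve13G007680 (chromosome 13, 25306783 to 25322101, minus strand). It stood at 105, 83.5 and 31.6 FPKM in the acidified libraries and at 2.28, 22.2 and 18.3 in the controls, a log2 fold change of 2.68 ± 0.78 (unadjusted p = 0.00975, adjusted p = 0.168 in edgeR). Control replicate 1 was far below the other controls and acidified replicate 3 was the nearest of its group to them. Without control replicate 1 the log2 fold change was 2.17.

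The gene next to it, 64237 bases on, is described as a nattectin-like galactose-specific lectin (Mve13G007690, a C-type lectin of fish venom by name). It is outside the wording rule, was picked after its values were seen and stood at 174, 185 and 44.3 FPKM against 6.55, 39.6 and 27.6. Mve13G007680 and Mve13G007690 were both lowest in control replicate 1, and in both acidified replicate 3 was the lowest of its group. The genes on either side of this pair, also picked after their values were seen, did not share the rise. Mve13G007670 had a log2 fold change of -0.42 ± 0.29 with overlapping groups. Mve13G007700 had one of -0.89 ± 0.44, with each acidified library below each control.

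Of the 3 tested mannose receptor genes with transcripts at least 3.30 times the median length, 2 had log2 fold changes of 0.12 and -0.56. Mve07G008460 and Mve07G008470 are adjacent on chromosome 7 (28410070 to 28622259), with transcripts 5.43 and 5.25 times the length of the median gene. The 3 genes above have ratios of 0.427 to 0.488, so the shared name covers transcripts of unlike size. Mve07G008460 stood at 9.30, 7.99 and 6.12 FPKM in the acidified libraries and at 7.27, 10 and 9.82 in the controls, with overlapping groups and a log2 fold change of 0.12 ± 0.20 (adjusted p = 0.811 in edgeR). Mve07G008470 stood at 5.30, 5.25 and 2.93 against 5.65, 7.61 and 11.9 FPKM, each acidified value under each control value on this scale but not on TMM-scaled CPM. Its log2 fold change was -0.56 ± 0.31, the smallest p of the lectin genes below 0 (adjusted p = 0.39 in edgeR).

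Other mannose receptor genes were uneven among replicates. The abundant C-type mannose receptor 2-like gene Mve13G003410 (chromosome 13, 10695498 to 10697284) stood at 174, 210 and 433 FPKM in the acidified libraries and at 333, 208 and 140 in the controls, with overlapping groups and a log2 fold change of 0.62 ± 0.47 (adjusted p = 0.547 in edgeR). Mve08G009850 stood at 0.69, 0.00 and 0.67 FPKM against 3.77, 0.44 and 3.51, a log2 fold change of -2.15 ± 1.22 (adjusted p = 0.408 in edgeR). Mve11G004490 had no count in replicate 1 of either group and a log2 fold change of 2.58 ± 1.74 (adjusted p = 0.49 in edgeR). Mve07G002130, with a transcript 3.30 times the median length, was at most 0.29 FPKM and differed by -2.03 ± 1.94 (adjusted p = 0.637 in edgeR). These last 3 have large fold changes with errors of over 1 on the log2 scale, and in each some libraries held no count.

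Of the 10 CD209-like genes, 5 were tested, with a median log2 fold change of 0.83, and at an unadjusted p under 0.05, 2 of the 5 were higher (against 9.29% of all genes) and 0 lower. Mve14G002220, described as CD209 antigen-like protein E (chromosome 14, 7814424 to 7815264, minus strand), stood at 11.4, 5.54 and 4.50 FPKM in the acidified libraries and at 1.96, 2.13 and 1.31 in the controls. The groups did not overlap, and the log2 fold change was 2.27 ± 0.42 (unadjusted p = 0.00078, adjusted p = 0.118 in edgeR). Mve08G004030, like CD209 antigen protein C (chromosome 8, 12300315 to 12302156), stood at 12.8, 6.37 and 11.4 against 7.32, 9.03 and 4.97 FPKM. Here acidified replicate 2 fell among the controls, and the log2 fold change was 0.83 ± 0.34 (unadjusted p = 0.0427, adjusted p = 0.27 in edgeR). With library size as the only scaling it was 0.54 (unadjusted p = 0.157, adjusted p = 0.414 in edgeR).

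**Figure D3:**
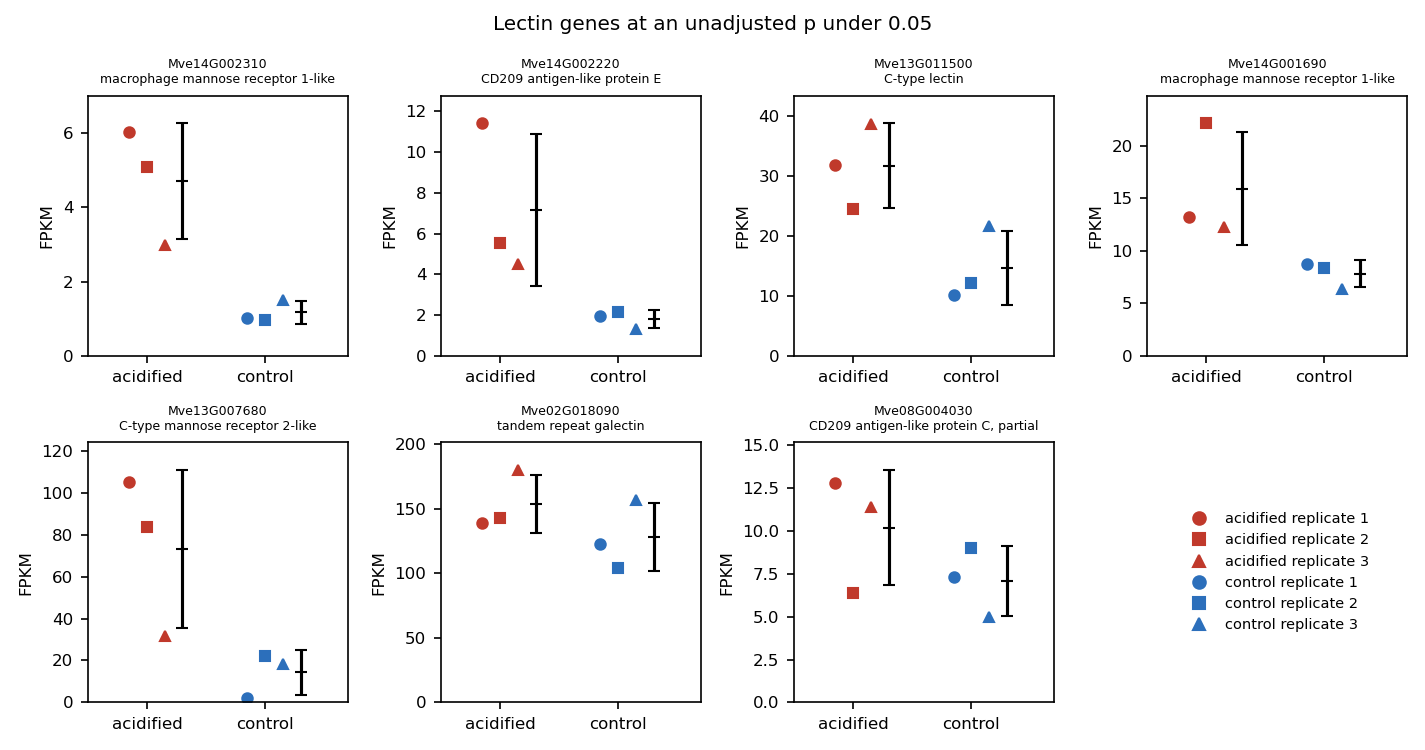
FPKM as deposited in each library, with the mean and SD of 3 libraries in black, of the 7 lectin genes at an unadjusted p under 0.05 in edgeR. The groups stay apart in the 5 genes with the smallest p and overlap on this scale in the galectin Mve02G018090 and in Mve08G004030.

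The genes Mve14G002220 and Mve14G002310 belong to the largest group of neighbouring lectin genes. It holds 6 within 106366 bases of chromosome 14 (7814424 to 7920789), 4 of them CD209-like and 2 mannose receptor-like. In the other 4 the groups overlapped. Mve14G002250 stood at 15.8, 21.9 and 6.46 FPKM in the acidified libraries and at 16.5, 8.79 and 25.6 in the controls. Mve14G002260, only 823 bases on, stood at 3.90, 8.85 and 1.89 against 1.68, 4.54 and 29.2 FPKM. Mve14G002330 stood at 9.80, 5.10 and 1.79 against 4.42, 2.26 and 23.9 FPKM.

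In these 3 genes control replicate 3 was the highest library, while in Mve14G002220 it was the lowest. All 3 were lowest of the acidified group in replicate 3, and their log2 fold changes were 0.14 ± 0.48, -0.87 ± 0.97 and -0.52 ± 0.87 (adjusted p = 0.907, 0.694 and 0.801 in edgeR). Without control replicate 3 the last 2 became 0.93 and 0.98. Mve14G002300, which ends 446 bases from Mve14G002310, had a log2 fold change of 0.97 ± 0.77 with overlapping groups (adjusted p = 0.562 in edgeR).

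Neighbouring genes were read as well, picked after their values were seen. Mve14G002210, which has no description and lies just outside the lectin group, 786 bases from Mve14G002220 on the same strand, stood at 32.8, 15.6 and 15.6 FPKM in the acidified libraries and at 9.25, 8.43 and 5.94 in the controls. The perlucin-like gene Mve14G002240 stood at 13.8, 13.6 and 2.12 against 6.65, 4.72 and 23.2 FPKM, again highest in control replicate 3 and lowest in acidified replicate 3. Between the lectin genes, the groups also overlapped in Mve14G002270, Mve14G002280 and Mve14G002290, with log2 fold changes of -0.68 ± 1.32, 0.35 ± 0.28 and 0.59 ± 1.05. Tandem copies can share reads, so values of single genes in such a group are uncertain.

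**Figure D4:**
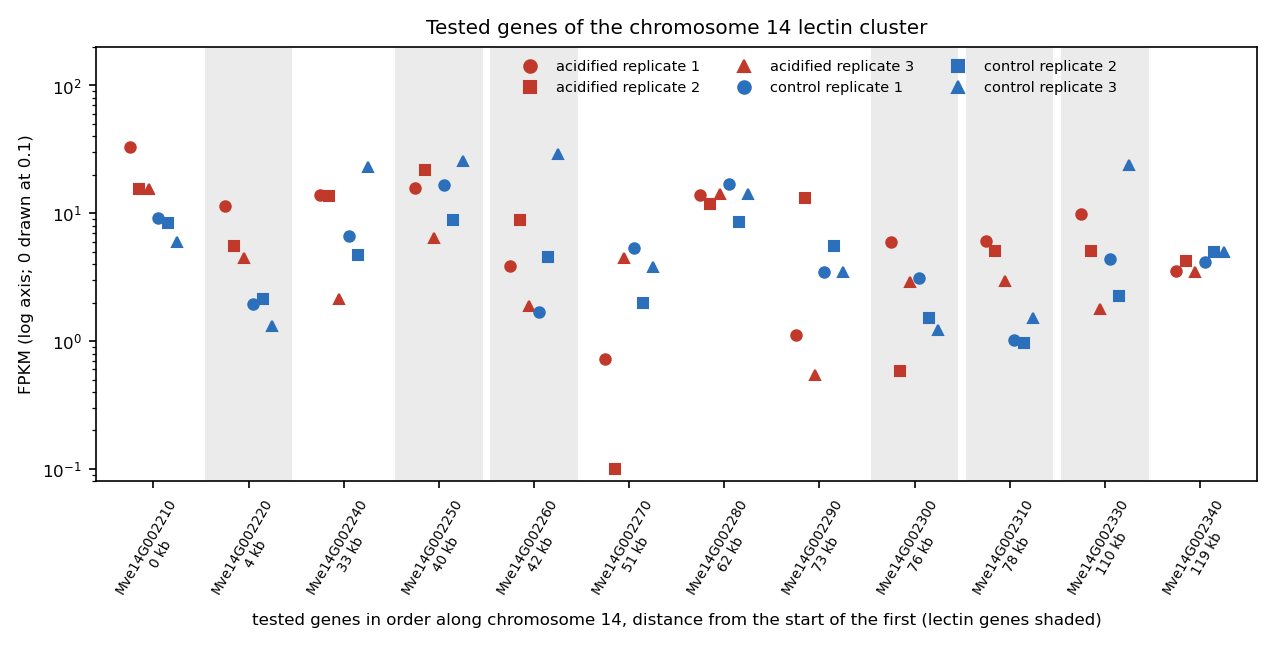
FPKM (log axis) in each library of the tested genes around the chromosome 14 lectin group, in map order with the distance from the start of the first, and lectin genes shaded. Acidified libraries lie above controls in Mve14G002210, Mve14G002220 and Mve14G002310, whereas control replicate 3 is highest in Mve14G002240, Mve14G002250, Mve14G002260 and Mve14G002330.

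Of 6 genes named for C-type lectin domain families, to which CD209 of vertebrates also belongs, 4 were tested and none passed at an unadjusted p under 0.05. Mve07G010360, like family 4 member F, stood at 22.9, 27.1 and 79.0 FPKM in the acidified libraries and at 53.0, 45.8 and 13.6 in the controls. Mve08G008400, like family 4 member D, stood at 9.93, 6.21 and 44.7 against 39.6, 14.7 and 9.47 FPKM. Each was highest in acidified replicate 3, was lowest of the controls in replicate 3, and spread several-fold within both groups, with log2 fold changes of 0.55 ± 0.66 and 0.30 ± 0.84 (adjusted p = 0.716 and 0.887 in edgeR). Without acidified replicate 3 these became -0.31 and -1.14. Mve14G006370, like family 6 member A, stayed at 0.19 to 1.18 FPKM and differed by -0.80 ± 0.84 (adjusted p = 0.675 in edgeR).

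All 4 collectin genes, relatives of the membrane-bound scavenger receptor collectin-12, were tested, with a median log2 fold change of 0.42, and none passed at an unadjusted p under 0.05. Of these, 3 lie on chromosome 4 between 52631243 and 52838234. Mve04G015050 stood at 10.7, 18.2 and 15.7 FPKM in the acidified libraries and at 9.95, 17.5 and 11.3 in the controls, a log2 fold change of 0.55 ± 0.34 (adjusted p = 0.442 in edgeR). Mve04G014990 stood at 3.46, 2.94 and 1.01 against 1.18, 4.57 and 7.30 FPKM, a log2 fold change of -0.48 ± 0.70 (adjusted p = 0.77 in edgeR). In both the groups overlapped.

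Genes described simply as a C-type lectin, with or without a number, made up 33 of the 100, and only 5 were tested. Mve13G011500 (chromosome 13, 37653756 to 37654772), the most abundant of them, stood at 31.9, 24.5 and 38.6 FPKM in the acidified libraries and at 10.1, 12.1 and 21.6 in the controls. The lowest acidified library lay above the highest control, and the log2 fold change was 1.48 ± 0.32 (unadjusted p = 0.00191, adjusted p = 0.12 in edgeR). Mve10G004370 stood at 1.35, 0.66 and 1.41 against 0.53, 0.96 and 0.60 FPKM, with overlapping groups and a log2 fold change of 1.03 ± 0.56 (adjusted p = 0.389 in edgeR). Mve04G006300 lay slightly the other way, at -0.49 ± 0.51 (adjusted p = 0.669 in edgeR).

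Fucolectin levels were low. Of 13 genes, 4 had no count in any library and 3 were tested, and their levels summed to between 1.66 and 5.28 FPKM in each library. Fucolectin-4 Mve09G007820 stood at 1.42, 0.90 and 2.48 FPKM in the acidified libraries and at 2.53, 2.90 and 0.58 in the controls, a log2 fold change of 0.00 ± 0.74. The fucolectin-like gene Mve01G008530 (chromosome 1, 24952315 to 24954714) had no count in any acidified library and 20, 8 and 6 counts in the controls. With 3 counts put in each acidified library as a floor, it would be 2.98-fold lower. It did not pass the filter and was not tested in the main edgeR fit. DESeq2 gave a log2 fold change of -5.61 (unadjusted p = 0.0155 in DESeq2, with no adjusted p). Another fucolectin-4, Mve13G010550, had counts in acidified replicate 1 and in all controls, and differed by -1.33 ± 1.65 (adjusted p = 0.728 in edgeR).

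Rare lectin transcripts were concentrated in control replicate 2. It held counts for 65 of the 100 genes, against 44 to 48 in the other libraries. Over all genes it held counts for 20596, against 19661 to 20448, and 534 were counted in it alone, against 262 to 322 in each other library. Of the 31 lectin genes with counts in a single library, 15 were counted in control replicate 2 and 2 to 4 in each other library. The 15 were 7 C-type lectins without a family name, 6 mannose receptor genes, a CD209-like gene and a galectin, at 3 to 124 counts with a median of 12.

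The most abundant of them, C-type lectin 5 Mve13G012910, had 124 counts (5.86 FPKM) there and none elsewhere. Control replicate 3 alone held the macrophage mannose receptor 1-like genes Mve13G012490 and Mve04G001930, with 116 and 101 counts, and acidified replicate 1 alone held C-type lectin 2 Mve14G013350, with 61. These 4 genes were picked after their values were seen, and a count in 1 library allows no comparison of groups. Leaving out control replicate 2 gave 7 of 39 tested lectin genes higher and 0 lower with an unadjusted p under 0.05 in edgeR. With all libraries it was 7 of 36 higher and 0 lower. The share of all genes without that library is not given.

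**Figure D5:**
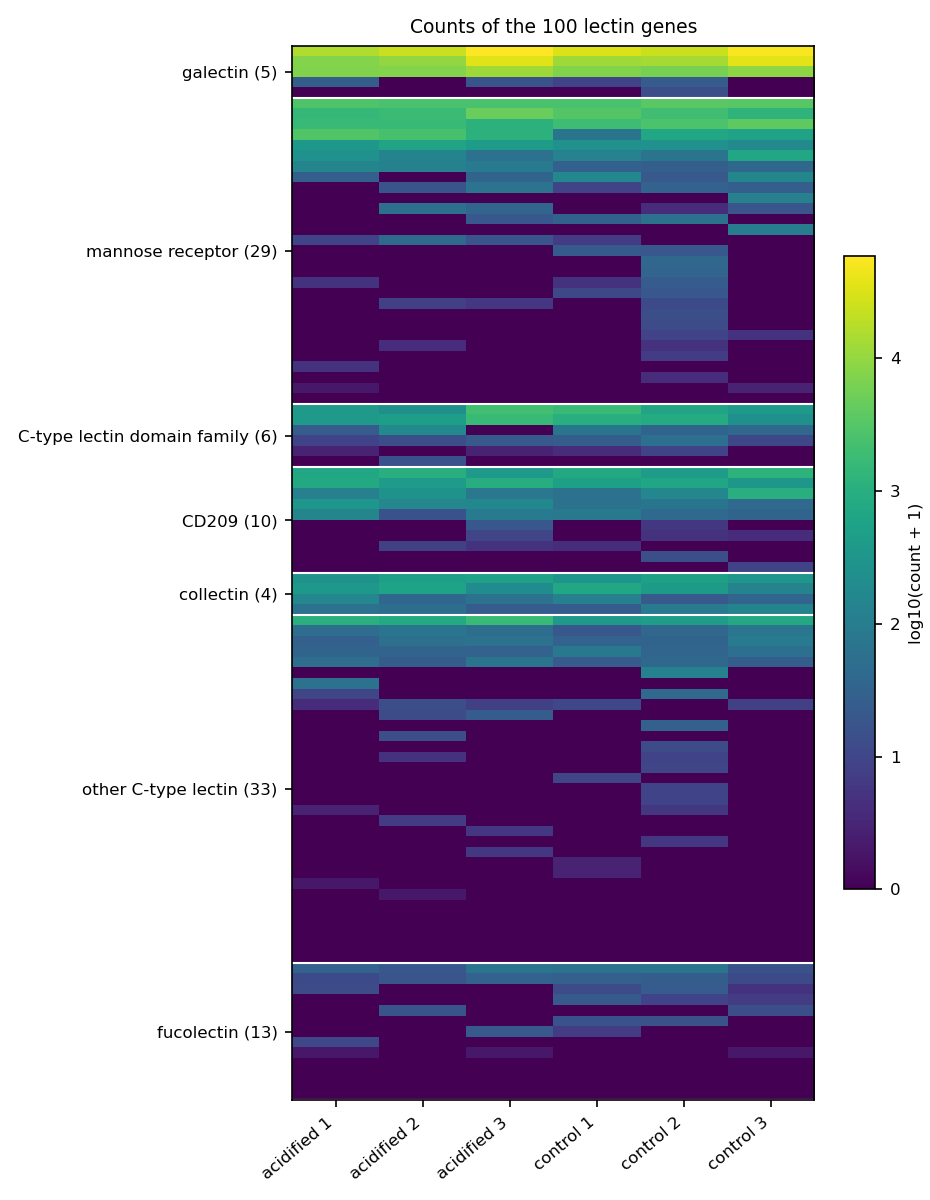
Counts on a log10(count + 1) scale of all 100 lectin genes (rows, grouped by name and ordered by total count) in the 6 libraries (columns). Control replicate 2 holds counts for 65 genes, with many mannose receptor and C-type lectin genes counted in it alone.

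Lectin genes lay on 17 chromosomes, with 17 of them on chromosome 4 and 11 on chromosome 14, and 42 of the 100 had another lectin gene within 100 kb. The table gave 39 of them the phagosome pathway term, 24 the term carbohydrate binding, 10 fucose binding and 8 mannose binding, while 25 had no ontology term. No lectin gene overlapped another annotated gene.

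Related groups of genes, listed by wording, were read from the same edgeR fit, and 0 of their genes passed at an adjusted p under 0.05. DESeq2 calls below are at an adjusted p under 0.05, where 3.68% of all genes were called higher and 2.58% lower. A list of other microbe recognition genes took in the wording of peptidoglycan recognition proteins, which bind bacterial walls. It also took in that of glucan-binding, lipopolysaccharide-binding and bactericidal permeability proteins. Of its 5 tested genes, 4 were higher and 0 lower by edgeR at an unadjusted p under 0.05 (80%, against 9.29% of all genes). The median log2 fold change was 0.85, and DESeq2 called 1 of the 5. Peptidoglycan recognition protein S3 Mve03G001420 stood at 3.89, 3.45 and 5.01 FPKM in the acidified libraries and at 1.87, 1.47 and 1.38 in the controls, all acidified values above all controls. A neighbour of that name, Mve03G001400, differed by 1.91 ± 0.67 with overlapping groups.

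Of 6 tested antimicrobial genes, 2 were higher and 0 lower by edgeR at an unadjusted p under 0.05 (33.3%, against 9.29% of all genes), and DESeq2 called 1. Their median was 0.39, and 0.05 with library size as the only scaling, where the median of all genes was -0.33. Both that edgeR gave as higher were lysozymes, enzymes that cut bacterial walls, and they are also on the haemocyte list. Lysozyme 1 Mve16G013720 stood at 31.8, 27.0 and 42.2 against 25.6, 15.4 and 19.1 FPKM, and lysozyme Mve16G013760 at 0.753, 1.49 and 7.10 against 0, 0.49 and 0.361, so that no acidified library fell among the controls in either.

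Lectins of the secretory pathway, which handle glycoproteins inside the cell, had a median of -0.64 over 9 tested genes, with 4 lower and 0 higher by edgeR at an unadjusted p under 0.05 (44.4% lower, against 8.13% of all genes), and DESeq2 called 1 lower. Calnexin-like Mve09G011050, a chaperone of the endoplasmic reticulum, stood at 2.58, 3.73 and 1.46 FPKM in the acidified libraries and at 7.17, 8.23 and 6.95 in the controls, with no overlap. The cation-independent mannose-6-phosphate receptor Mve05G016000, which sorts enzymes to lysosomes, stood at 0.55, 0.67 and 0.629 against 1.31, 1.10 and 1.48 FPKM, again with no overlap. Calreticulin-like Mve03G001600, by far the most abundant, lay at 0.31 ± 0.24 with overlapping groups (adjusted p = 0.549 in edgeR).

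Complement-like proteins had a median of -0.02 over 45 tested genes, with 3 higher and 5 lower by edgeR at an unadjusted p under 0.05. The edgeR shares, 6.67% and 11.1%, are near the 9.29% and 8.13% of all genes. Of 42 genes, DESeq2 called 2 higher and 3 lower, against 3.68% and 2.58% of all genes. The wording also took in 10 acyl thioesterases, and without them 2 of 38 were higher and 5 lower. CD109-like Mve09G012960, of the family of thioester proteins, stood at 149, 332 and 449 FPKM in the acidified libraries and at 122, 155 and 88.9 in the controls, whereas CD109-like Mve06G009680 stood at 4.05, 2.33 and 1.75 against 9.79, 6.45 and 13.6. Complement component C6 Mve06G005380 and thioester-containing protein 1 Mve06G009700 differed by 0.79 ± 0.20 and -1.08 ± 0.25. In each of these 4 the groups did not overlap on TMM-scaled CPM.

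Phagosome and endosome genes had a median of 0.14 over 28 tested genes, with 2 higher and 3 lower by edgeR at an unadjusted p under 0.05. DESeq2 called 1 of 27 higher and 0 lower. The V-ATPase subunit e gene Mve13G006420, part of the pump that acidifies vesicles, and cathepsin L-like Mve04G010300 differed by 0.75 ± 0.19 and 0.52 ± 0.17. Another V-ATPase gene, Mve07G002930, and early endosome antigen 1-like Mve08G001360 differed by -0.94 ± 0.29 and -0.72 ± 0.26. The edgeR shares, 2 and 3 of 28, are near the 9.29% and 8.13% of all genes.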

How the data were processed

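Gene counts and FPKM of 6 mantle libraries were used as deposited by the authors in 1 table, per the file headers. Per the labels, RNA was poly(A)-selected and dUTP-stranded, and sequenced as paired reads. The submitters' processing notes name cutadapt 1.9, HISAT2 2.2.1, StringTie 2.1.6, DESeq2 and edgeR without roles; neither the genome build nor the strand setting of counting is stated there or in the labels. A further 12 columns were not used.

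Counts were tested with edgeR 4.0.16 (filterByExpr, TMM, quasi-likelihood F test, Benjamini-Hochberg over 17790 genes; R 4.3.3). Tests use all 6 libraries with no covariate. Alternatives were DESeq2 1.42.0, library size alone, no filter, a replicate block, removal of the length trend, limma 3.58.1 on log2(FPKM + 1) and log2(FPKM + 0.1), with a filter at a mean of 1 FPKM or none, and leaving out each library. Transcript length was recovered from count over FPKM. The fit was tested on simulated data. Same-numbered libraries did not deviate together (correlations 0.009, -0.044 and -0.007), so they were not paired.

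Members and lists were chosen with earlier results of these data known. Named lectin genes are the 10 per direction with the smallest p, the 10 with the highest mean FPKM, and those without a count in 1 group and counted in every library of the other. From each companion list the 2 genes per direction with the smallest p are named. Mve07G008460, Mve14G002300, Mve02G018110 and Mve02G012030 are named outside these rules. Any further gene is said in its paragraph to be picked after its values were seen.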

Additional observations from a re-analysis of the deposited data

How the results depend on the processing

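Of the 100 lectin genes, 64 held too few counts to be tested, and in edgeR 0 of 17790 genes passed adjustment. DESeq2 called 1113 genes and 5 lectin genes at an adjusted p under 0.05, and leaving out a library gave 0 to 2 genes; the cause of this difference was not tested. The 7 lectin genes at an unadjusted p under 0.05 kept their direction under all 14 alternatives. They were chosen by their p in the main fit and the alternatives use the same libraries, so this adds no independent support. Removing the length trend shifts fold changes and keeps the p of the main fit. In all alternatives that recompute p, an unadjusted p under 0.05 held for 5 of these 7 genes. It did not hold for Mve02G018090 (highest p by edgeR or limma 0.234) or Mve08G004030 (0.196). Both lost it with library size alone, in limma and without some libraries, and Mve08G004030 also with the block. Higher lectin genes at an unadjusted p under 0.05 numbered 10 of 86 tested with DESeq2, 9 of 89 without a filter and 5 of 36 with library size alone. In limma they numbered 5 of 27, 5 of 27 and 6 of 89, and without a library 5 to 8 of 39 to 43. Lower lectin genes at that p, 0 in edgeR, numbered 2 with DESeq2, 1 with library size alone and 5 without a filter. They numbered 1 in each of the 3 limma fits and 0 to 3 without a library. The share of all genes at that p is not given for these settings, so these counts cannot be set against it. Lectin genes with groups that do not overlap numbered 6 to 14 without a library, where fewer samples separate more easily: 6 to 10 were higher and 0 to 5 lower, while 16.1% to 18.1% of all genes were higher and 17.3% to 20% lower. The 5 lower were without control replicate 3 (9 higher and 5 lower of 43). The lectin median of 0.42 was 0.14 with DESeq2 (86 genes), 0.08 with library size alone, 0.12 without a filter (89 genes), 0.07, 0.09 and -0.03 in limma with a pseudocount of 1, of 0.1 and without a filter, and 0.12 to 0.49 without a library. Relative to the median of all genes it was 0.43 in the main fit, 0.15 with DESeq2, 0.40 with library size alone and 0.13 without a filter. In the 3 limma fits it was 0.30, 0.37 and 0.07 on that basis. With the replicate block, 0 genes passed adjustment, 6 higher and 1 lower lectin genes had an unadjusted p under 0.05, with a median of 0.27; the libraries share only a number.

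Medians of related lists moved with scaling. With library size alone they were -0.36 for complement-like, -0.95 for secretory pathway and -0.20 for phagosome genes, where the median of all genes was -0.33. Relative to all genes these lists stood at -0.03, -0.63 and 0.13, against -0.02, -0.63 and 0.15 in the main fit. With the length trend removed the medians of the last 2 were -0.44 and 0.04. In limma with a pseudocount of 1, of 0.1 and without a filter, complement-like genes gave -0.29, -0.34 and -0.24 and phagosome genes -0.20, -0.19 and -0.19. Relative to all genes these were -0.05, -0.05 and -0.13, and 0.03, 0.10 and -0.08. Antimicrobial genes gave 0.21 with DESeq2 and without a filter, 0.05 with library size alone, 0.13 with the length trend removed, 0.02, 0.04 and -0.05 in limma, and 0.19 to 0.71 without a library. Relative to all genes they stood at 0.38 with library size alone and at 0.26, 0.32 and 0.06 in limma, against 0.39 in the main fit. Without a filter in limma, secretory pathway genes gave -0.46 and other microbe recognition genes 0.42, or -0.35 and 0.53 relative to all genes. Without a library, secretory pathway genes ranged from -0.74 to -0.47 and phagosome genes from 0.09 to 0.16.

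Signs turned for 9 named lectin genes, none past an unadjusted p of 0.05, and the cause was not tested. With library size alone, log2 fold changes were -0.23 for Mve02G017790, -0.37 for Mve02G017890, -0.04 for Mve08G008400 and -0.20 for Mve14G002250. With the length trend removed they were -0.11 for Mve02G017790, -0.22 for Mve02G017890 and -0.02 for Mve14G002250. The 3 limma fits gave -0.31 for Mve02G017790, -0.40 for Mve02G017890, -0.30, -0.33 and -0.30 for Mve08G008400, and -0.22, -0.24 and -0.22 for Mve14G002250. The replicate block gave -0.06 for Mve02G017890, -0.16 for Mve08G008400, 0.06 for Mve09G007820, 0.00 for Mve14G002260 and 0.11 for Mve14G002330, and DESeq2 gave 0.00 for Mve09G007820. Without a library, values ran from -0.44 to 0.46 for Mve02G017790, -0.79 to 0.67 for Mve02G017890, -0.92 to 0.03 for Mve04G014990, -0.31 to 0.89 for Mve07G010360, -1.14 to 1.14 for Mve08G008400, -0.53 to 0.37 for Mve09G007820, -0.31 to 0.49 for Mve14G002250, -1.67 to 0.93 for Mve14G002260 and -1.12 to 0.98 for Mve14G002330.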
